A study of Arabidopsis thaliana with 10 samples.

Results

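Wild-type pollen of *Arabidopsis thaliana* was profiled in this series from 2 sources, and the 4 small RNA libraries made from them, of 10 in all, are described here. They were chosen by their genotype labels alone, and all 4 were used. WT FTL pollen (2 libraries) came from plants heterozygous both for the fluorescence-tagged line FTL1230, a pLAT52::DsRed transgene that lights up the vegetative cell and is genetically linked to *NRPD1a*, and for the *nrpd1a-3* allele on the homologous chromosome. Its DsRed-positive grains, which carry the wild-type gene, were collected by fluorescence-activated sorting, so these grains developed on a sporophyte with a single functional copy of *NRPD1a*. WT Col-0 pollen (2 libraries) came from plants without reporter or mutation and was not sorted. Both are in the Col-0 background and were grown under a 16 h photoperiod. Sorting, the reporter, the heterozygous parent, the handling of the grains and any separate sequencing run cannot be told apart in this comparison. The remaining libraries, 2 of sorted *nrpd1a-3* FTL pollen and 4 of unsorted pollen expressing the RNase III-like protein RTL1 from the LAT52 or the MGH3 promoter, are used only where stated.

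A mature pollen grain holds a large vegetative cell and a pair of sperm cells enclosed in it. Plant small RNAs come in kinds with known lengths and origins: microRNAs (miRNAs) are cut by DCL1 from hairpin transcripts, trans-acting siRNAs are cut from TAS transcripts in a 21-nt phase, and 24-nt siRNAs are made from transposable elements (TEs) by RNA polymerase IV, of which NRPD1a is the largest subunit, with RDR2 and DCL3. Fragments of tRNA form a further class, also known from Arabidopsis pollen. miR845 is a pollen miRNA complementary to the primer-binding sites of LTR retrotransposons, the sites where the 3′ end of a tRNA, often that of initiator methionine tRNA, primes reverse transcription.

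The miRNAs whose genes were lower in WT FTL than in WT Col-0 pollen are printed 5′ to 3′, with the seed (bases 2 to 8) in capitals. They are printed together with miR845a, whose gene had the highest mean miRNA signal over the 4 libraries. Sequences and coordinates are those of RefSeq for TAIR10.1.
miR399f: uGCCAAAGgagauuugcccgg
miR827: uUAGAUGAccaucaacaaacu
miR869.1: aUUGGUUCaauucugguguug
miR869.2: uCUGGUGUugagauaguugac
miR319c: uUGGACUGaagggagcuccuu
miR853: uCCCCUCUuuagcuuggagaag
miR157d: uGACAGAAgauagagagcac
miR845a: cGGCUCUGauaccaauugaug
None of these shares its seed with another of them. The seed of miR399f is that of every other 3′-arm miR399. miR399b and miR399c-3p have the same sequence throughout.
miR399a: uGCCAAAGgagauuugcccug
miR399b: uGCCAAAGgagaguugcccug
miR399c-3p: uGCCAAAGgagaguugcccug
miR399d: uGCCAAAGgagauuugccccg
miR399e: uGCCAAAGgagauuugccucg

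Genes of 5 tRNAs are printed as the transcribed strand with the anticodon in capitals. The first 2 had the largest increases in WT FTL pollen, the methionine gene AT5G57885 stands for the initiator genes described with miR845a, and the last 2 are from families with many and with no called genes.
tRNA-Asp-GTC AT5G32017: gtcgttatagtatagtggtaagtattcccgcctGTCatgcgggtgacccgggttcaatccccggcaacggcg
tRNA-Met-CAT AT5G41675: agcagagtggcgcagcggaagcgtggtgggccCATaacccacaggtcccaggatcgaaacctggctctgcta
tRNA-Met-CAT AT5G57885: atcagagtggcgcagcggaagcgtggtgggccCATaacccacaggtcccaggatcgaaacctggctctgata
tRNA-Leu-AAG AT3G13223: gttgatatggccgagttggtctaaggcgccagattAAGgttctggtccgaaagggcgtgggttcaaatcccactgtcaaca
tRNA-Arg-TCG AT1G52350: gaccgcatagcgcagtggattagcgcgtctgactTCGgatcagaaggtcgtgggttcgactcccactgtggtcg

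For each nuclear gene and RNA length the authors listed a signal in RPM (reads scaled to a library total), in which a read is divided by its number of perfect genomic matches. Signal of RNAs of 18 to 30 nt was summed per gene and is given in RPM throughout. The listed signal amounted to 7298190 and 4296913 hit-weighted reads in WT FTL and to 8700508 and 6289385 in WT Col-0 pollen. A single read was worth 0.667 and 1.21 RPM in the WT FTL and 0.430 and 1.08 RPM in the WT Col-0 libraries. WT FTL replicate 2, the library with the fewest reads, stood apart at several abundant loci: *MIR845a* had 429793 and 79042 RPM in WT FTL against 434917 and 382206 RPM in WT Col-0 pollen, and *TAS1A* had 28437 and 2290 RPM against 25924 and 27539 RPM. At these loci WT FTL replicate 1 was at the WT Col-0 level. Sorted *nrpd1a-3* FTL pollen was also lower in replicate 2, with 252148 and 56465 RPM at *MIR845a* and 12885 and 1697 RPM at *TAS1A*. There replicate 2 had more hit-weighted reads (10195575) than replicate 1 (7518523), so the low values were not confined to the library with the fewest reads. Differences between sources that rest on these loci are therefore given with all 4 values.

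Much of the small RNA landscape was common to both sources. Of 33119 genes with any signal, 25481 (76.9%) had signal in all 4 libraries, and 27 loci were among the 100 highest of every library. A minimum of 12 hit-weighted reads, averaged over the 4 libraries, left 10664 loci. Across these, which are not independent replicates, the log2 signal of the WT FTL replicates correlated with a Pearson r of 0.916 and that of the WT Col-0 replicates with 0.935, while pairs of 1 library from each source gave 0.762 to 0.889. Among the loci of highest mean signal were 2 genes of the small-subunit rRNA (AT3G41768 had 638766 and 587818 RPM in WT FTL, against 489575 and 1257310 RPM in WT Col-0 pollen) and *MIR845a*. Another was the pseudogene AT2G07731 in the mitochondrial DNA insertion of chromosome 2, with 357963 and 409886 RPM in WT FTL, against 138664 and 286992 RPM in WT Col-0 pollen. AT2G01021, which ranked above *MIR845a* by mean signal, was lower in WT FTL (64753 and 101821 RPM) than in WT Col-0 pollen (295402 and 1036770 RPM).

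Each of the 10664 loci was tested in limma, on log2(signal + 1), at a Benjamini-Hochberg adjusted p below 0.05 over all of them. Values as deposited placed most loci lower in WT FTL pollen, with a median log2 difference of −0.65, and 6658 loci lay within 1.5-fold of that median, so a class or gene is read against it. WT FTL pollen was higher at 214 loci (2.01%) and lower at 52 loci (0.488%). The calls were not alike: 201 of the 214 higher loci were tRNA genes and none of the 52 lower loci was one. At an unadjusted p below 0.05, 598 loci (5.61%) were higher and 1817 (17.0%) lower. The count depended on the libraries and on their scaling. Without WT FTL replicate 2 no locus passed in either direction (553 higher and 1319 lower at unadjusted p), and without WT Col-0 replicate 1 none was higher and 6 were lower (354 higher and 453 lower at unadjusted p). Without WT FTL replicate 1, 376 loci were higher and 1917 lower, and without WT Col-0 replicate 2, 374 were higher and 25 lower. Scaled to the miRNA genes 945 loci were higher and 30 lower, scaled without structural RNA genes 685 and 65, and scaled to the median ratio or to the TE genes none in either direction. A scaling moves all log2 differences nearly alike, and the median of all loci was also −0.65 when scaled to the summed signal and lay between −0.27 and 0.35 under the 4 other scalings.

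The composition of the libraries differed most in tRNA fragments. Signal on tRNA genes was 1210342 and 1744496 RPM in WT FTL against 139263 and 375374 RPM in WT Col-0 pollen, a 5.74-fold difference of means, and made up 24.9 and 33.7% of all listed signal in WT FTL and 3.72 and 5.51% in WT Col-0 pollen. The groups did not overlap. For a single value of 2 against 2 libraries the smallest two-sided exact permutation p is 0.333, so no test of these sums could pass. The p-values of single loci reflect no sampling beyond the biological replicates of each source. In the fit the variance of each locus was also drawn toward a trend over all loci, and without that trend no locus passed in either direction. In bulk pollen, fewer cells of a type and less RNA per cell cannot be told apart.

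Of the other classes, miRNA, TE, other RNA and protein-coding genes were below WT Col-0, pseudogenes were above it, and the rest overlapped. Signal on miRNA genes was 701706 and 358933 RPM in WT FTL against 930380 and 1168816 RPM in WT Col-0 pollen. Without *MIR845a* it was 271913 and 279890 RPM against 495464 and 786610 RPM, so the order did not rest on that gene and the WT FTL replicates then lay close together. As a share of signal without structural and organelle-like genes, however, miRNA genes overlapped (39.3 and 28.9% in WT FTL, 39.3 and 33.6% in WT Col-0 pollen). TE genes had 412005 and 354448 RPM in WT FTL against 500790 and 511428 RPM in WT Col-0 pollen. Protein-coding genes had 594891 and 516874 RPM against 856016 and 1709589 RPM, of which 64753 and 101821 RPM in WT FTL, against 295402 and 1036770 RPM in WT Col-0 pollen came from AT2G01021, a short gene inside the ribosomal DNA unit of chromosome 2. Without it the protein-coding sums were 530137 and 415053 RPM in WT FTL, against 560614 and 672817 RPM in WT Col-0 pollen. Signal on rRNA genes overlapped, with 1450848 and 1728783 RPM in WT FTL, against 1024332 and 2602028 RPM in WT Col-0 pollen, as did that on snRNA and snoRNA genes. Pseudogenes were above WT Col-0 in sum (410913 and 445918 RPM against 199840 and 339264 RPM), but without AT2G07731 they overlapped (52950 and 36032 RPM in WT FTL, 61177 and 52272 RPM in WT Col-0 pollen).

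**Figure D1:**
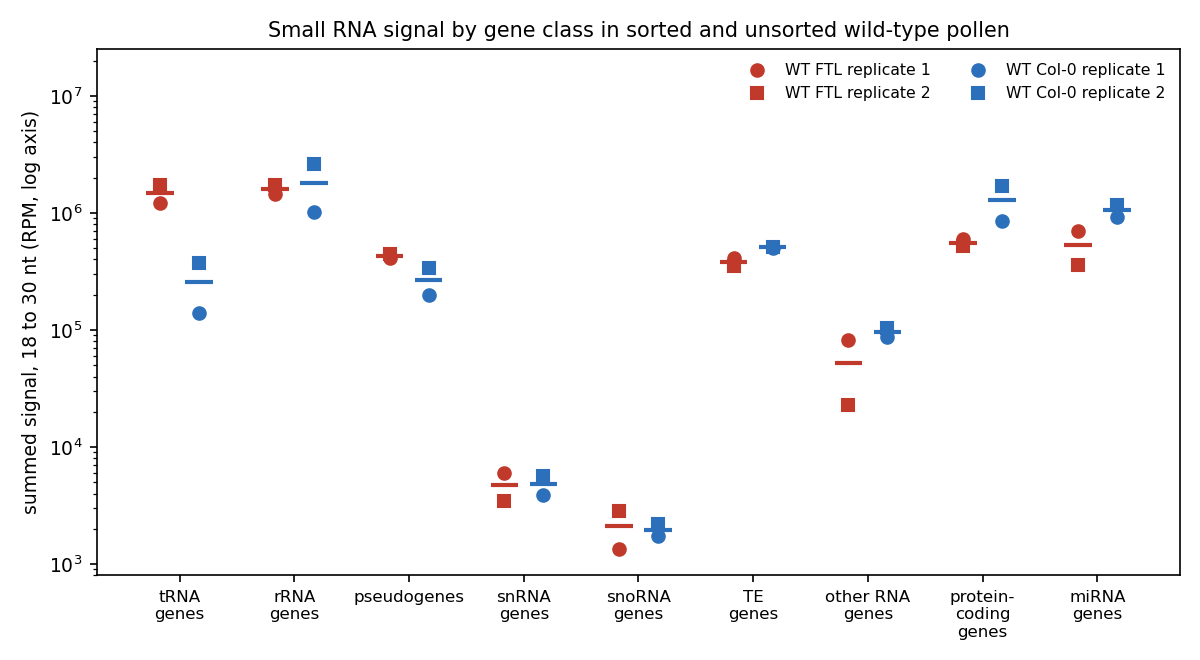
Signal per gene class in each library, in RPM on a log axis, with WT FTL libraries left of WT Col-0 libraries and a line at each group mean. The tRNA genes are separated by the widest gap, with WT FTL libraries at 1210342 and 1744496 RPM and WT Col-0 libraries at 139263 and 375374 RPM, while rRNA genes overlap.

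The added tRNA signal was largest at 18 and 19 nt, at the lower end of the lengths kept. At 18 nt, tRNA genes had 561315 and 456283 RPM in WT FTL against 15933 and 84675 RPM in WT Col-0 pollen, and at 19 nt they had 374324 and 387686 RPM against 43512 and 125089 RPM. RNAs of 18 nt thus made up 46.4 and 26.2% of tRNA signal in WT FTL against 11.4 and 22.6% in WT Col-0 pollen, and 19 nt was the commonest length in both WT Col-0 libraries (31.2 and 33.3%). WT FTL replicate 2 also had a shoulder from 22 to 25 nt, with 177317 RPM at 22 nt where WT FTL replicate 1 had 32544 RPM and the WT Col-0 libraries had 9223 and 21430 RPM. Its size profile on tRNA genes therefore differed from that of the other sorted replicate. RNAs of 18 to 20 nt were 84.7 and 59.9% of tRNA signal in WT FTL and 64.1 and 78.8% in WT Col-0 pollen, so this share overlapped.

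**Figure D2:**
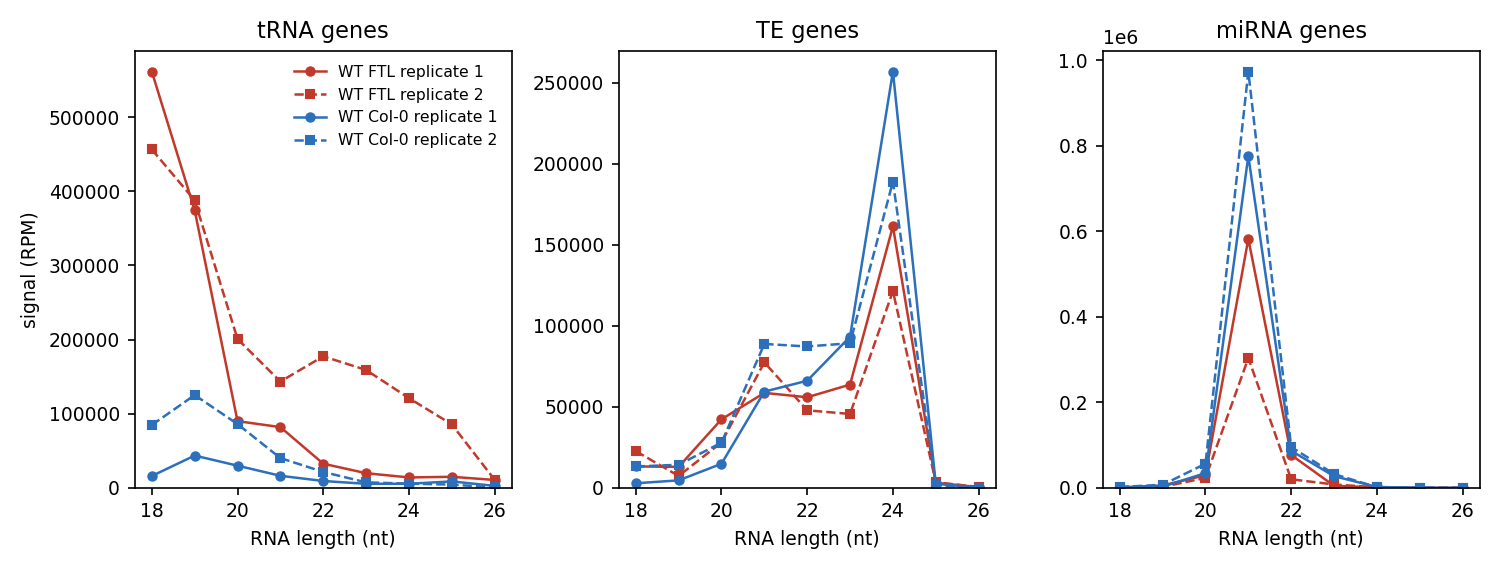
Signal by RNA length from 18 to 26 nt on tRNA, TE and miRNA genes, in RPM, with a line for each of the WT FTL and WT Col-0 libraries. Lines of WT FTL pollen stand above those of WT Col-0 pollen at 18 and 19 nt on tRNA genes and below them at 24 nt on TE genes, and miRNA signal peaks at 21 nt in every library.

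The increase ran through nearly all tRNA families. Of 617 tRNA genes tested, 597 had a positive log2 difference and 20 a negative one, with a median of 2.68, and 201 (32.6%) were called higher against 2.01% of all loci. By anticodon, 37 of 46 families had more summed signal in both WT FTL than in both WT Col-0 libraries and 21 had a called gene. Copies with an identical sequence receive equal shares of a read, so genes are not independent: 613 tested tRNA genes with a sequence held 217 distinct sequences, and 200 called ones held 71.

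Families differed in size of increase. tRNA-Leu-AAG had 49501 and 59274 RPM in WT FTL against 1376 and 7238 RPM in WT Col-0 pollen, the highest family median (log2 4.14), with 10 of 11 genes called in limma and 0 in limma-voom. tRNA-Tyr-GTA, the family with the most genes here, had 67955 and 174985 RPM against 3827 and 13327 RPM, with 64 of 68 tested genes called. tRNA-Asp-GTC had 6306 and 13158 RPM against 736 and 1013 RPM, with all 25 genes called. Families whose tested genes were all called further included Gln-CTG (9 genes), Thr-AGT (10), Glu-TTC (10), Val-CAC (8), Val-TAC (7) and Gln-TTG (7). Other families had a high median and no call. tRNA-Ser-AGA, with 223912 and 182105 RPM in WT FTL against 13150 and 46480 RPM in WT Col-0 pollen, had a median log2 of 3.08 and none of 35 genes called (all 35 at unadjusted p in limma, 2 in limma-voom), and tRNA-Lys-TTT, with 13669 and 121011 RPM against 2116 and 5713 RPM, had none of 13 (all 13 at unadjusted p, 0 in limma-voom). The calls of a family also depended on the method. In limma-voom 64 genes of Tyr-GTA and 25 of Asp-GTC were called, and the counts were 6 for Gln-CTG, 5 for Val-CAC and 9 for Glu-TTC. Conversely, 16 of 16 Phe-GAA and 43 of 44 Pro-TGG genes were called in limma-voom and none of them in limma.

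The groups overlapped in 8 families, those of Ile-AAT, Ile-TAT, Leu-TAA, Lys-CTT, Thr-TGT, Arg-ACG, Arg-CCG and Arg-TCG. tRNA-Arg-TCG had 5369 and 8325 RPM in WT FTL against 4970 and 11277 RPM in WT Col-0 pollen (median log2 −0.17). tRNA-Arg-CCG, which gave the most abundant tRNA genes of all (AT1G79240 and AT1G16450), had 230187 and 41231 RPM in WT FTL against 24722 and 60734 RPM in WT Col-0 pollen, so the groups overlapped and the high value was that of WT FTL replicate 1. The single gene of tRNA-Gly-ACC had the only family sum below WT Col-0 without overlap, at 1.33 and 10.8 RPM in WT FTL against 24.95 and 15.2 RPM in WT Col-0 pollen.

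**Figure D3:**
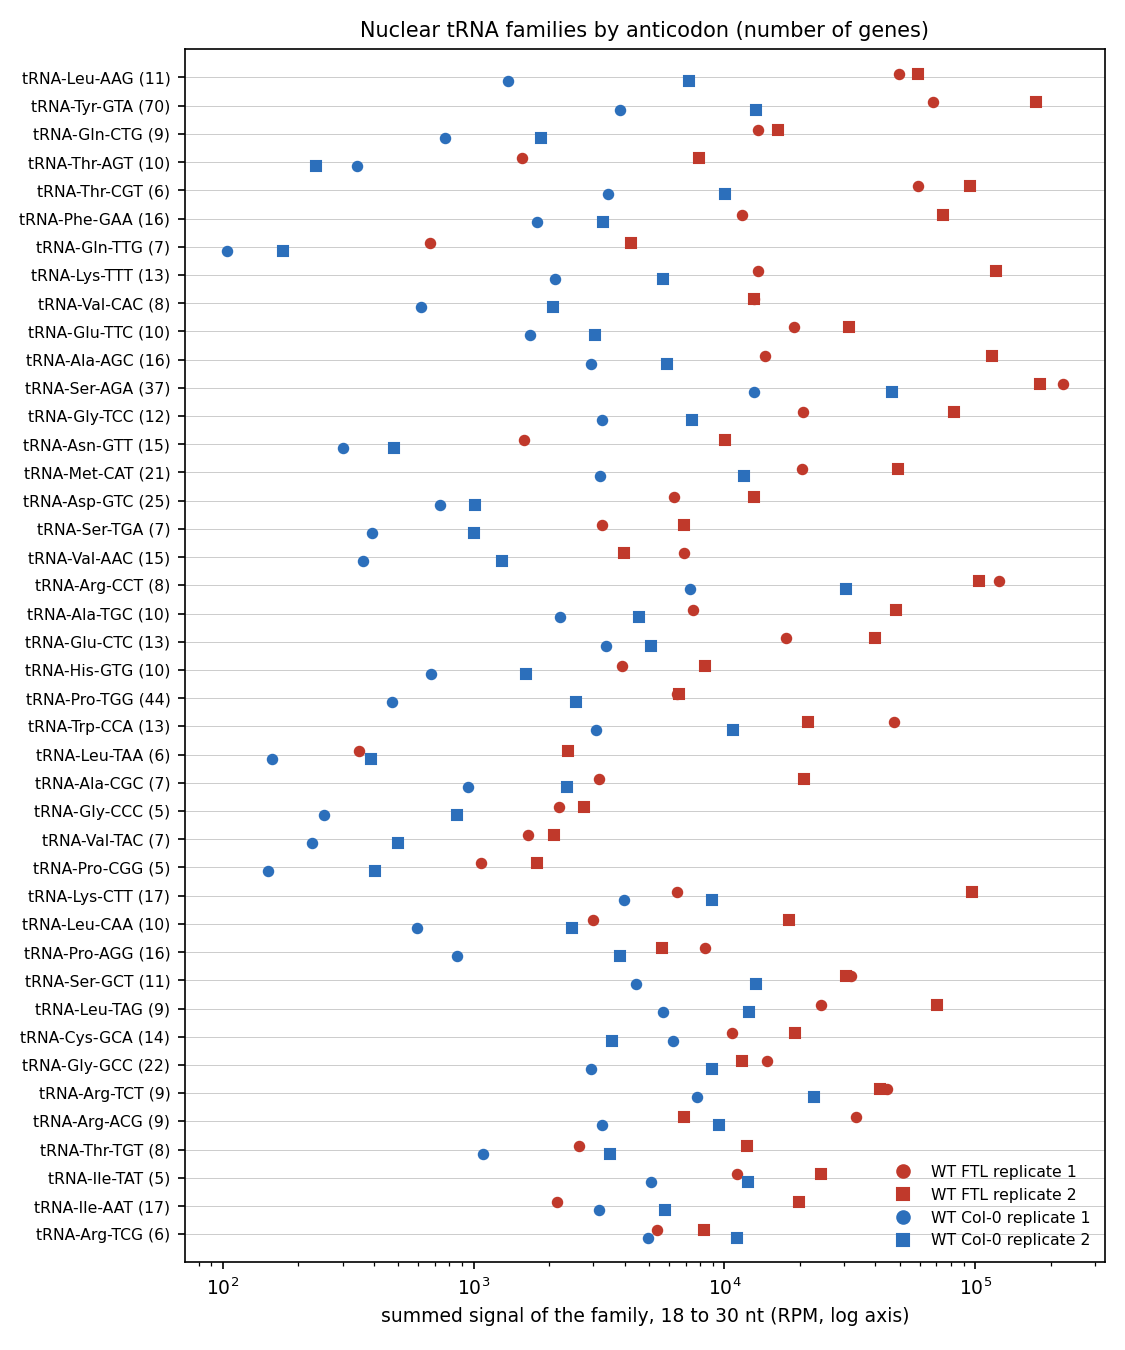
Summed signal of nuclear tRNA families with at least 5 genes, by anticodon, in RPM on a log axis, a point per library, with WT FTL above WT Col-0 within each family and families ordered by their median log2 difference. Leu-AAG is at the top with a median of 4.14, and Arg-TCG is at the bottom with −0.17.

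Among named genes, the largest increase was at AT5G32017, a tRNA-Asp-GTC gene at chr5:11785055-11785126, with 2861 and 2907 RPM in WT FTL against 54.7 and 180 RPM in WT Col-0 pollen (log2 4.84, SE 0.66, limma adjusted p = 0.0314). It was followed by AT5G41675, a tRNA-Met-CAT gene at chr5:16667436-16667507, with 1310 and 5055 RPM in WT FTL against 62.1 and 134 RPM in WT Col-0 pollen (log2 4.80, SE 0.73, adjusted p = 0.0314). The next 4 increases were tRNA-Met-CAT genes of a single sequence (AT5G57885, AT5G54865, AT2G23020 and AT5G67455), each near 1454 and 4204 RPM in WT FTL against 68.8 and 189 RPM in WT Col-0 pollen (log2 4.42, SE 0.72, adjusted p = 0.0314). In all of these genes 18 nt was the commonest length in both WT FTL libraries and in WT Col-0 replicate 2, whereas in WT Col-0 replicate 1 it was 23 nt for the aspartate gene and 19 nt for the methionine genes.

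The methionine genes split by sequence. AT5G57885 ends in a stretch of 10 bases, ggcucugaua at positions 63 to 72 of the tRNA, that is identical to bases 2 to 11 of miR845a and so covers its seed. With the CCA that is added to every mature tRNA the identical stretch runs to 13 bases, while in AT5G41675 it stops after 7. All 9 tested tRNA-Met-CAT genes that share 7 or 10 bases with miR845a in this way were called higher, and 1 of the other 11 was called. Copies of a single sequence receive equal shares of a read, so these are not counts of independent genes. The median log2 difference was 4.42 for the sequence of AT5G57885 (6 genes) and 4.27 for a second sequence with the same 10 bases (2 genes). Sequences that share 5 bases lay between, at 1.97 (2 genes, 1 of them called) and 1.38 (2 genes, none called). The commonest sequence that shares 4 bases had 0.35 (5 genes). Families not compared with miR845a also had high medians, such as Leu-AAG with 4.14. Signal of *MIR845a* itself (429793 and 79042 RPM in WT FTL, 434917 and 382206 RPM in WT Col-0 pollen) was in neither WT FTL library above both WT Col-0 libraries. The values give no position within a tRNA, and RNAs that end with the added CCA were not looked for.

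tRNA genes of mitochondrial type had a smaller difference. In 23 listed tRNA genes with a match to mitochondrial DNA the summed signal was 5710 and 5897 RPM in WT FTL against 2748 and 5163 RPM in WT Col-0 pollen, a 1.47-fold difference of means. Of these 18 were tested, with a median log2 of −0.05 and none called in limma (2 higher at unadjusted p, 1 higher in limma-voom). In the 606 listed tRNA genes without an organelle match the difference of means was 5.82-fold, and of 597 tested, with a median of 2.81, 201 were called. Both kinds were thus higher in WT FTL pollen in sum, and whether they differ from each other was not tested. The mitochondrial-type genes are nuclear copies, and an RNA of the organelle that matches them perfectly counts for them in part.

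Of 13 called loci that were not annotated as tRNA genes, 12 were protein-coding and 1 was another RNA gene. A tRNA gene lay inside 10 of the 13. In *MPS1* (AT5G57880), which functions in meiotic spindle organisation, lies AT5G57885, and its signal of 1456 and 4207 RPM in WT FTL against 72.1 and 192 RPM in WT Col-0 pollen was almost that of the tRNA gene (log2 4.38). Of the other 3, AT3G11402 lies 41 bp from the tRNA-Val-CAC gene AT3G11395 (1953 and 1808 RPM in WT FTL against 52.1 and 267 RPM in WT Col-0 pollen), AT1G73650 holds 60 bases that are 98.3% identical to tRNA-Glu-TTC, and AT1G21529 holds 36 bases identical to tRNA-Phe-GAA. No called increase was free of tRNA sequence inside or beside it.

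The same loci differed between the other sorted and unsorted libraries of the series. Both *nrpd1a-3* FTL libraries were above all 4 RTL1 libraries at 880 of 10664 loci (8.25%), among them all 214 loci called higher in WT FTL pollen, and all 4 sorted libraries were above all 6 unsorted ones at 538 loci (5.05%), again with all 214 among them. tRNA genes had 1620414 and 2235962 RPM in *nrpd1a-3* FTL pollen against 283593 to 446299 RPM in the RTL1 libraries. The *nrpd1a-3* FTL and RTL1 libraries were not used to call the loci, but the comparison of all 4 sorted with all 6 unsorted libraries includes those that were. The paper states that *nrpd1a-3* FTL and WT FTL grains were sorted at the same time, from the same heterozygous plants. The *nrpd1a-3* FTL and RTL1 libraries differ from each other in genotype and transgene as well as in sorting.

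Small RNA of 6 miRNA genes was lower in WT FTL pollen, 4.76% of the 126 tested against 0.488% of all loci. The class as a whole was lower, with 115 negative and 11 positive log2 differences and a median of −1.50, which is 0.84 below that of all loci. The 6 genes were *MIR399f*, *MIR827*, *MIR869*, *MIR319c*, *MIR853* and *MIR157d*. In each of them all 4 sorted libraries of the series were below all 6 unsorted ones, as they were at 2928 of 10664 loci (27.5%). That comparison includes the libraries used for the calls.

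*MIR399f* had the largest decrease of all loci. Its miRNA targets *PHO2*, an E2 ubiquitin conjugase that limits phosphate uptake, and is made in phosphate starvation. The gene at chr2:14444997-14445114 had 11.1 and 31.6 RPM in WT FTL against 1117 and 1161 RPM in WT Col-0 pollen, or 21.3 ± 14.5 against 1139 ± 30.8 RPM (SD, n = 2 libraries each), a 53.4-fold lower level (log2 −5.84, SE 0.55, limma adjusted p = 0.0172). In *nrpd1a-3* FTL pollen it had 16.8 and 34.3 RPM, against 228 to 530 RPM in the RTL1 libraries. WT Col-0 pollen thus stood above every other library as well as above the sorted ones.

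*MIR827*, whose miRNA targets the E3 ligase gene *NLA* in the same phosphate pathway, had 6.005 and 24.1 RPM in WT FTL against 296 and 590 RPM in WT Col-0 pollen (log2 −4.98, SE 0.63, adjusted p = 0.0314). *MIR869* had 8.01 and 2.41 RPM in WT FTL against 124 and 113 RPM in WT Col-0 pollen (adjusted p = 0.0314), where the lowest value is 2 reads. RNAs of 24 nt were 42.0 and 37.5% of its signal in WT Col-0 pollen and those of 21 nt 36.5 and 40.4%. *MIR319c*, from which a regulator of TCP transcription factors is made, had 20.9 and 17.3 RPM against 103 and 291 RPM (log2 −3.12, adjusted p = 0.0314). In these 3 genes the groups were separated by a wide gap.

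The remaining pair were closer. *MIR853*, which lies within AT3G23325 so that their signal is shared, had 23.7 and 15.7 RPM in WT FTL against 89.1 and 113 RPM in WT Col-0 pollen (log2 −2.32, adjusted p = 0.0314). *MIR157d*, of the family that targets SPL transcription factors, had 29.7 and 20.2 RPM against 133 and 86.2 RPM (log2 −2.08, adjusted p = 0.0463). No miRNA gene was called higher (1 at unadjusted p in limma, 0 in limma-voom). The 3 largest positive differences were those of *MIR825* (40.0 and 9.64 RPM in WT FTL against 4.30 and 3.25 RPM in WT Col-0 pollen, log2 2.14, adjusted p = 0.1704), *MIR402* (29.7 and 21.7 RPM against 6.88 and 22.8 RPM) and *MIR399b*.

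**Figure D4:**
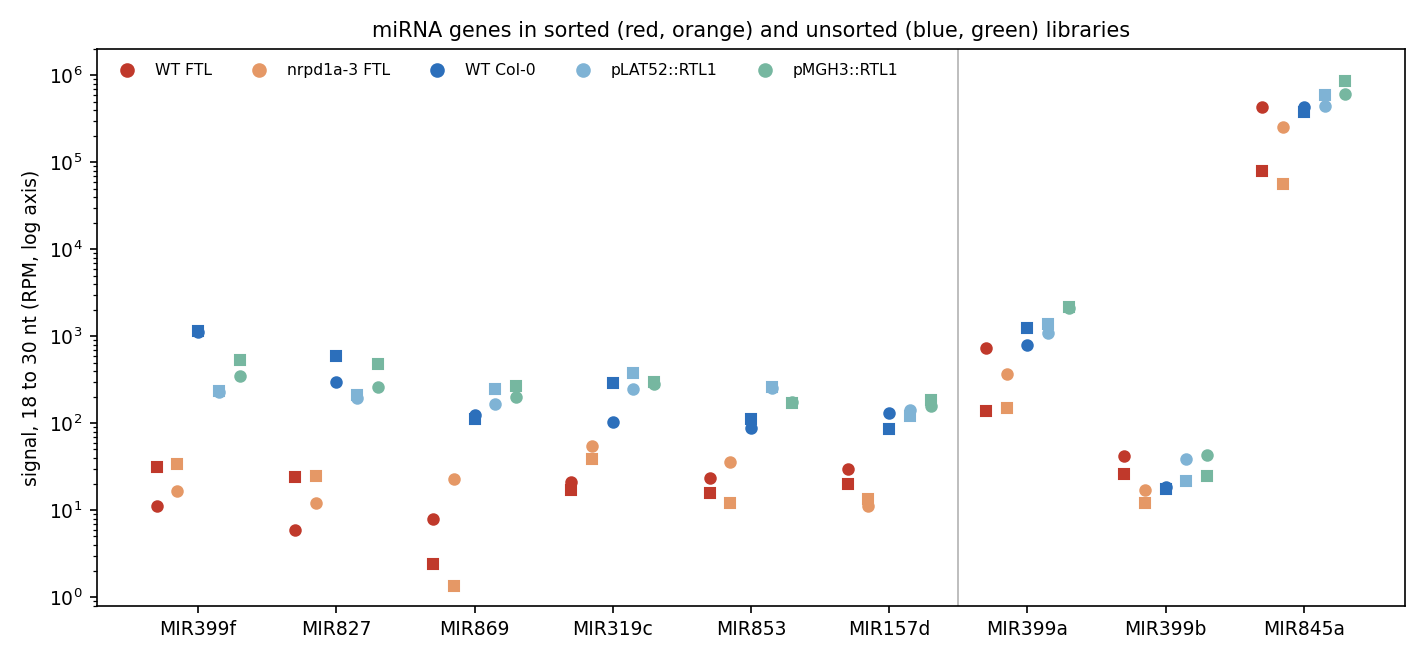
Signal of miRNA genes in each of the 10 libraries in RPM on a log axis, sorted libraries left of unsorted ones, for the 6 genes called lower (left of the line) and 3 others. *MIR399f* shows the widest gap, with 11.1 and 31.6 RPM in WT FTL against 1117 and 1161 RPM in WT Col-0 pollen, and *MIR845a* has low values in the replicate 2 libraries of sorted pollen.

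Because *MIR399f* and *MIR827* belong to 1 pathway, 12 phosphate starvation RNAs were looked at together, a list chosen after these values were seen. Of 9 tested, 2 were called lower in limma (0.488% of all loci were), 5 at unadjusted p and 3 in limma-voom, none was higher, and 8 had a negative difference (median log2 −2.27, against −0.65 for all loci). The called pair are the genes that prompted the list, so these counts are no separate evidence. *MIR778* had 6396 and 2154 RPM in WT FTL against 15700 and 11397 RPM in WT Col-0 pollen, and *MIR399a* had 726 and 138 RPM against 785 and 1259 RPM. Small RNA of *PHO2* itself was at 14.4 and 5.06 RPM in WT FTL against 34.9 and 59.7 RPM in WT Col-0 pollen (log2 −2.27, limma adjusted p = 0.0716). *MIR399d*, in the same cluster of chromosome 2 as *MIR399f*, had 1.07 and 0.241 RPM in WT FTL against 23.3 and 19.6 RPM in WT Col-0 pollen (adjusted p = 0.0854), and *MIR2111b* had 0.667 and 0 RPM against 44.96 and 8.67 RPM (adjusted p = 0.119). Their WT FTL values amount to between 0 and 1.6 hit-weighted reads, so no fold is given. The genes were not all alike: *MIR399b* had 42.0 and 25.9 RPM in WT FTL against 18.5 and 17.3 RPM in WT Col-0 pollen, and *MIR399c*, which gives the same 3′-arm miRNA, had 24.02 and 12.7 RPM against 18.5 and 19.5 RPM, neither of them called.

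The 10 miRNA families of highest mean signal over the 4 libraries held 92.7 and 94.2% of miRNA signal in WT FTL and 92.7 and 92.1% in WT Col-0 pollen. Ranked within each source, 8 of the leading 10 families were shared, with miR158 and miR829 among the 10 in WT FTL pollen alone and miR166 and miR778 in WT Col-0 pollen alone. RNAs of 21 nt were 83.0 and 84.6% of miRNA signal in WT FTL and 83.5 and 83.3% in WT Col-0 pollen, so the length of miRNAs was alike while their sum was not. miR845 was first by mean over the 4 libraries, with 445920 and 81646 RPM in WT FTL, against 459230 and 404861 RPM in WT Col-0 pollen. In WT FTL replicate 2 it was below miR161. miR161, which targets pentatricopeptide repeat genes, overlapped between sources (67520 and 114600 RPM against 111697 and 147295 RPM), as did miR773 and miR168.

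The other leading families were lower in both WT FTL libraries, without a called gene in any of them. Of all tested loci, 52.0% were lower in this way. miR165 and miR166, which target HD-ZIP III transcription factors, had 4662 and 18011 RPM and 2362 and 6962 RPM in WT FTL against 35323 and 80864 RPM and 17020 and 34647 RPM in WT Col-0 pollen. miR160, which targets auxin response factors, had 22985 and 29068 RPM in WT FTL against 63989 and 163051 RPM in WT Col-0 pollen. miR156 (21985 and 24249 RPM against 52364 and 62047 RPM), miR398 (17025 and 12644 RPM against 33763 and 69276 RPM) and miR778 were likewise below WT Col-0. Trans-acting siRNA genes followed WT FTL replicate 2: *TAS1C* had 20934 and 3572 RPM in WT FTL against 23789 and 26476 RPM in WT Col-0 pollen, *TAS2* 8223 and 1695 RPM against 11878 and 14682 RPM, and *TAS1B* 7375 and 1976 RPM against 8267 and 10429 RPM. All 6 tested TAS genes had a negative difference (median −1.77) and none was called (2 lower at unadjusted p in limma, 0 in limma-voom).

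TE siRNAs were lower in WT FTL pollen by less than miRNAs. Of 3491 tested TE genes 3433 had a negative log2 difference (median −0.88, 0.23 below that of all loci), 12 were called lower (0.344%, against 0.488% of all loci) and none was called higher (1 at unadjusted p in limma, 0 in limma-voom). Scaled to the miRNA genes the TE median was positive (0.14), so its direction depends on the scaling. At 24 nt TE genes had 161464 and 121494 RPM in WT FTL against 256988 and 189085 RPM in WT Col-0 pollen, and at 21 nt 58632 and 77474 RPM against 59390 and 88846 RPM, so the sources were apart at 24 nt and overlapped at 21 nt. RNAs of 18 to 20 nt were 16.6 and 16.4% of TE signal in WT FTL against 4.45 and 10.8% in WT Col-0 pollen. The 24-nt to 21-nt ratio was 2.75 and 1.57 in WT FTL and 4.33 and 2.13 in WT Col-0 pollen, so the sources overlapped.

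Signal of TE genes was also split by position. In TE genes of the chromosome arms, more than 2.5 Mb from a centromere, 24-nt signal was 37572 and 29444 RPM in WT FTL against 63092 and 47158 RPM in WT Col-0 pollen, and 21-nt signal was 11557 and 5871 RPM against 12470 and 21752 RPM. In TE genes within 2.5 Mb of a centromere, 24-nt signal was 123892 and 92050 RPM in WT FTL against 193896 and 141927 RPM in WT Col-0 pollen, while 21-nt signal overlapped, with 47075 and 71603 RPM against 46920 and 67093 RPM. Median log2 differences were −0.99 in the arms, with 8 of 653 tested genes called lower (1.23%), and −0.86 near centromeres, with 4 of 2838 (0.141%), against 0.488% of all loci.

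**Figure D5:**
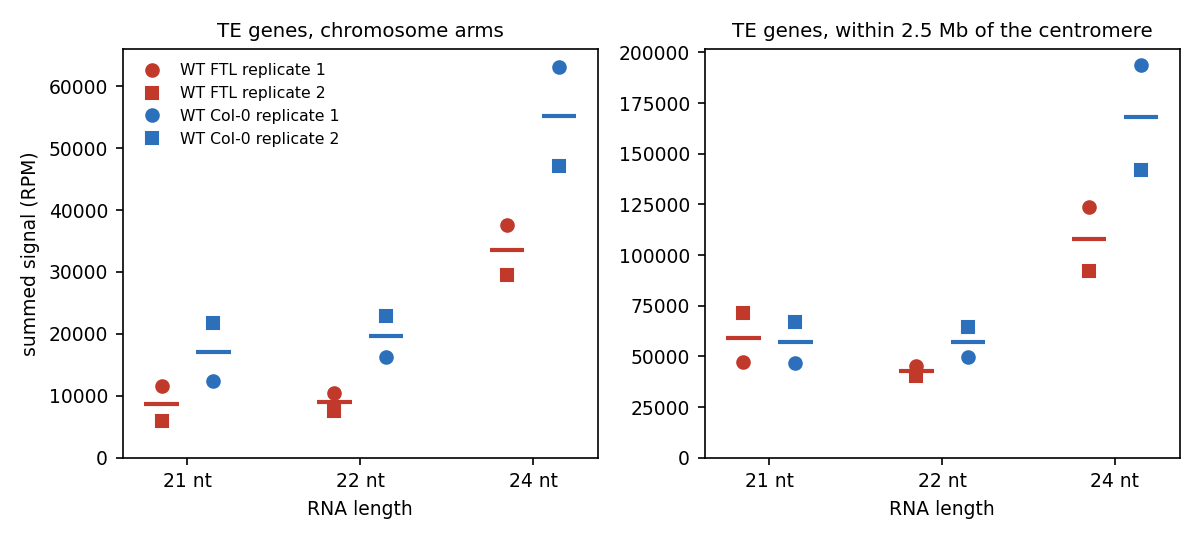
Signal of TE genes at 21, 22 and 24 nt in RPM, for genes in the chromosome arms and within 2.5 Mb of a centromere, a point per library with WT FTL left of WT Col-0. At 24 nt both WT FTL libraries are below both WT Col-0 libraries at either position, and at 21 nt the groups overlap near centromeres (47075 and 71603 RPM in WT FTL, 46920 and 67093 RPM in WT Col-0 pollen).

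TE genes with the largest decreases were AT5G37442 (26.02 and 7.23 RPM in WT FTL against 145 and 120 RPM in WT Col-0 pollen, log2 −3.16, adjusted p = 0.0314), AT2G36040 (26.4 and 10.2 RPM against 150 and 87.6 RPM, log2 −2.72) and AT3G25630 (36.4 and 18.1 RPM against 187 and 141 RPM, log2 −2.61). Over the summed signal of the 4 libraries 24 nt was the commonest length in each of them, but 23 nt was at AT5G37442 in WT FTL replicate 2 and 22 nt at AT3G25630 in WT Col-0 replicate 2. The largest positive difference, not called, was at AT3G28160, with 302 and 1230 RPM in WT FTL against 28.2 and 199 RPM in WT Col-0 pollen (limma adjusted p = 0.129), and there 18 nt was the commonest length. AT5G29890 had 63653 and 17754 RPM in WT FTL against 11270 and 9560 RPM in WT Col-0 pollen, with 20 nt the commonest length. The most abundant TE gene, AT4G06477, had 40440 and 116936 RPM in WT FTL, against 49187 and 52874 RPM in WT Col-0 pollen.

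Over the 4 libraries summed, 24 nt was the commonest length at 34 of the 52 loci called lower (65.4%) and 21 nt at 11 (21.2%), against 69.3% and 17.4% of all tested loci. With RNAs of 21 and 22 nt alone 268 loci were called lower, 41 of the 52 among them, and with 23 and 24 nt alone none was (954 at unadjusted p in limma). Log2 differences of the 52 ran from −5.84 to −1.82. Besides the miRNA and TE genes they included 28 protein-coding genes, 4 pseudogenes, 1 snoRNA gene and 1 other RNA gene. Both *nrpd1a-3* FTL libraries were below all RTL1 libraries at 49 of the 52 (94.2%), against 66.6% of all loci. The *nrpd1a-3* mutation removes the polymerase that makes 24-nt siRNAs. At loci rich in 24-nt RNA, sorting and the mutation therefore cannot be told apart in these libraries.

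AT5G21125, a protein-coding gene at chr5:7185048-7185428, had 2 reads or fewer in each WT FTL library. Its signal was 1.33 and 1.21 RPM in WT FTL against 62.8 and 61.8 RPM in WT Col-0 pollen, most often of 24 nt (adjusted p = 0.0314), and the fitted log2 of −4.80 depends on the pseudocount. The other libraries did not separate by sorting: it had 4.03 and 1.34 RPM in sorted *nrpd1a-3* FTL pollen, 1.06 and 0.730 RPM in unsorted pMGH3::RTL1 pollen, but 77.6 and 62.9 RPM in unsorted pLAT52::RTL1 pollen. *CYCP2;1*, a P-type cyclin gene, had 9.34 and 4.82 RPM in WT FTL against 83.9 and 78.0 RPM in WT Col-0 pollen (log2 −3.40, adjusted p = 0.0314), with 24 nt the commonest length over the 4 libraries summed. AT5G65560 had 77.4 and 151 RPM in WT FTL against 551 and 2844 RPM in WT Col-0 pollen (log2 −3.52, adjusted p = 0.0494), with 19 nt the commonest length.

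Small RNAs of genes with known cell types were compared as a check on what each source held, although a gene's small RNA is not its mRNA. Of 12 sperm cell genes 11 were tested and none was called in limma (median log2 −0.05; 0 at unadjusted p and 0 in limma-voom), and the sum over the 12 was 865 and 686 RPM in WT FTL, against 668 and 920 RPM in WT Col-0 pollen, led by *TET12* (485 and 362 RPM against 364 and 453 RPM). Of 12 vegetative cell genes none was called (median 0.21, 1 higher at unadjusted p, 0 in limma-voom), with sums of 6720 and 5384 RPM in WT FTL, against 4551 and 8057 RPM in WT Col-0 pollen, led by the pectin methylesterase gene *VGD1* (2294 and 1871 RPM against 1873 and 3398 RPM). Both sums overlapped between sources, and both medians were above the −0.65 of all loci. None of 11 tapetum genes reached the minimum for a test, with sums of 41.0 and 31.3 RPM in WT FTL, against 35.7 and 37.9 RPM in WT Col-0 pollen.

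Genes of leaf photosynthesis, which mark green sporophyte tissue, were lower in sum. All 14 had a negative difference (median −1.42), none was called (8 lower at unadjusted p, 0 in limma-voom), and the sum was 274 and 73.7 RPM in WT FTL against 285 and 684 RPM in WT Col-0 pollen. *CAB1*, for a light-harvesting protein, had 28.4 and 5.32 RPM in WT FTL against 43.5 and 110 RPM in WT Col-0 pollen, and *RBCS1A*, for the small subunit of Rubisco, 38.9 and 7.53 RPM against 39.5 and 87.1 RPM. WT FTL replicate 1 and WT Col-0 replicate 1 were close in both. These sums move in the same direction as those of the lowered miRNA families, and their part in that result was not tested.

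Genes of the silencing machinery were not called either. Of 15 tested, 14 had a negative difference (median −0.75 against −0.65 for all loci, 0 at unadjusted p and 0 in limma-voom). *AGO2*, a slicer Argonaute, had 756 and 387 RPM in WT FTL against 768 and 1283 RPM in WT Col-0 pollen, and *AGO1*, the main miRNA effector and target of miR168, had 162 and 174 RPM against 238 and 409 RPM. Within 0.1 Mb of *NRPD1A*, to which the reporter is linked, 17 of 69 genes were tested and none was called (median −1.02, 5 lower at unadjusted p in limma, 0 in limma-voom).

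No rRNA gene was called (0 of 4 tested, also at unadjusted p and in limma-voom). AT2G01020, a gene of the 5.8S rRNA, had 93246 and 282182 RPM in WT FTL against 36421 and 72969 RPM in WT Col-0 pollen, whereas the small-subunit genes overlapped and AT2G01021, farther along the same unit, was lower in both WT FTL libraries. With SEs of 2.12 to 4.12 on the log2 scale across these loci, differences of this size were not resolved.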

How the data were processed

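Pollen small RNAs of 10 libraries were sequenced by BGI as single-end reads of 50 nt. The signal values that the authors deposited give, for each gene and RNA length, reads matched perfectly to TAIR10 with Bowtie, each divided by its genomic hits and scaled to RPM. Their sums exceed the total that this unit implies, so they are called signal. Implied totals were 829770 to 2324263 reads for the 4 libraries described. Intervals from counting are not given, since reads are weighted.

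Groups were taken from the genotype labels. Signal of 18 to 30 nt was summed per gene, and lengths above 30 nt, listed in 2 libraries of the series, were left out. Weighted values are not counts, so limma 3.58.1 (R 4.3.3) was fitted on log2(signal + 1) with a variance trend to the 2 WT FTL and 2 WT Col-0 libraries, with 2 residual and 7.29 prior degrees of freedom. Loci with a mean under 12 hit-weighted reads were not tested. In simulated data of 10664 loci, 118 of 200 loci planted at a log2 difference of 2 were recovered, with 14 false calls among the loci not planted. Of 200 planted at 4, 196 were recovered, with 3 false calls. The simulated noise was drawn for each locus alone, without a shift of whole libraries, so these rates need not hold for the real libraries. Tables were made with Python 3.11.15 and pandas 2.3.3, and organelle matches (98% identity over 80% of a gene) with BLAST+ 2.17.0. Names, coordinates and sequences are from RefSeq for TAIR10.1.

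The members and gene lists were chosen with earlier results of these data known. Named genes were drawn from the 12 highest loci, the 6 largest called increases or decreases, the 3 largest differences either way among miRNA, TE or protein-coding genes, the 4 highest or the called members of a list, or the 10 miRNA families of highest mean over the 4 libraries. Not every gene of these sets is named. Others (further called miRNA genes, some called increases outside tRNA genes, the phosphate list and the tRNA families) were named after their values were seen. Alternatives tried were 5 scalings, no filter, a pseudocount of 0.1 or 5, limma-voom, a constant variance prior, all 10 libraries in the fit, 21 and 22 nt or 23 and 24 nt alone, 1 locus for each set of identical loci, a block for the replicate number, each library left out, and class sums from 20 to 25 nt, without structural and organelle-like genes, or without the highest locus.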

Additional observations from a re-analysis of the deposited data

Results flagged for a closer look

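RNAs of 31 to 45 nt were listed in WT FTL replicate 1, with 80715 RPM in all, and are outside the lengths compared above. rRNA genes held 51.1% of this signal (41273 RPM) and tRNA genes 44.0% (35518 RPM). None was listed in WT FTL replicate 2 or in either WT Col-0 library, and of the other libraries only *nrpd1a-3* FTL replicate 1 listed any (45613 RPM). The lengths listed therefore differ between libraries, and the sources cannot be compared above 30 nt.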

How the results depend on the processing

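The direction of the tRNA genes held under every alternative run, with a median log2 difference of 1.99 to 3.73, and none of 27 loci tracked by name reversed. The counts of calls moved widely around 214 higher and 52 lower loci. Scaled to the summed signal 452 loci were higher and 98 lower, scaled to the miRNA genes 945 and 30, and scaled without structural RNA genes 685 higher, with 65 lower. Scaled to the median ratio 0 were higher (1193 at unadjusted p) and 0 lower (422), scaled to the TE genes 0 (848) and 0 (678), and without a variance trend 0 (598) and 0 (1379). With no filter 340 were higher and 87 lower, with all 10 libraries in the fit 345 and 133, and with a pseudocount of 5, 89 were lower. At 21 and 22 nt alone 352 were higher and 268 lower, and at 23 and 24 nt alone 11 and 0 (954 lower at unadjusted p). With 1 locus of each identical set, 137 were higher. Leaving out a library gave 0 to 376 higher and 0 to 1917 lower loci.

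With a replicate block 548 loci were higher and 460 lower. The labels share only numbers, and the deviations of same-numbered replicates correlated across loci at 0.285, over 2 pairs, so the block is no paired analysis. All 214 higher and 52 lower loci were also called with the block and with a pseudocount of 5, and all 214 higher loci when scaled to the summed signal, to the miRNA genes or without structural RNA genes. The lower loci held less well: 40 of the 52 were called when scaled to the summed signal, 18 when scaled to the miRNA genes and 30 without structural RNA genes. limma-voom called 278 higher, 195 of them among the 214.

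The TE median was 0.14 when scaled to the miRNA genes, against −0.88. As a share of listed signal without structural and organelle-like genes, TE genes were 7.86 percentage points higher in WT FTL pollen, where the full share was 2.79 points lower (−2.79), miRNA genes differed by −2.34 points (−10.3 in full) and protein-coding genes by −5.55 (−12.9 in full). Protein-coding genes differed by −10.4 points at 20 to 25 nt and by −4.34 without AT2G01021. tRNA genes differed by 13.5 points at 20 to 25 nt, against 24.7. The fewest reads were those of WT FTL replicate 2, and loci at single reads there carry no measurable fold.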
